A study of Drosophila melanogaster with 8 samples.

Results

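The genes described here are sxe2, Cyp4d21 (also called sxe1) and Fbp2, 3 genes of the fat body, together with the yolk protein genes Yp1, Yp2 and Yp3, which serve as the female-type contrast in male heads. They are 6 of the 6793 genes named on the array, and 14 of its 27648 rows carry only their names. sxe2, Cyp4d21 and Fbp2 were chosen with their ratios on these arrays known, so their values are given as a description and without a test. The yolk protein genes were not chosen for their values and were tested. Every row naming a gene was averaged on each array: sxe2, Fbp2, Yp1, Yp2 and Yp3 each had 1 clone spotted in duplicate, and Cyp4d21 had 2 clones in 4 rows. Another 2 rows named Yp3 together with Rtc1, and these were not counted as Yp3. sxe2 (Dmel_CG4979) lies on chromosome arm 3R, Cyp4d21 (Dmel_CG6730) and Fbp2 (Dmel_CG3763) on 2L, and Yp1 (Dmel_CG2985), Yp2 (Dmel_CG2979) and Yp3 (Dmel_CG11129) on the X chromosome.

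The head of an adult fly holds, beside the brain and eyes, a layer of fat body, the insect counterpart of liver and adipose tissue. This tissue differs between the sexes. The sex determination cascade acts in it through the transcription factor Doublesex, and in females it makes yolk proteins for the eggs. In males it expresses sxe1 and sxe2, named as sex-specific enzymes: Cyp4d21 is a cytochrome P450 linked to male courtship and under clock control, and sxe2 encodes a protein of the lipase family. Fbp2 is a fat body protein related to alcohol dehydrogenase. The yolk proteins are themselves lipase relatives.

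The flies were unmated males of the Oregon-R wild type, and RNA of their heads was measured on 2-colour cDNA arrays. Each array carried RNA from a pool of heads of treated flies and from a parallel pool of control flies. The day 14 flies ate food with pentylenetetrazole (PTZ), a GABA-A receptor blocker that causes seizures, for 7 days, then food with sodium valproate (NaVP), a drug against epilepsy and an inhibitor of histone deacetylases, for 3 days, and then normal food for 4 days (n = 4 arrays). The day 10 flies were taken at the end of the same PTZ and NaVP periods (n = 4 arrays), and control flies of both days ate normal food throughout. Flies were 3 to 4 days old at the start. The labels give 8 mg/ml PTZ and 0.33 mg/ml NaVP, while the series text gives 0.33 mg/ml PTZ and 24 mg/ml NaVP, and the files did not settle which was used. No group received NaVP alone, so PTZ and NaVP cannot be told apart within a day. The arrays of the 2 days hold different flies of different age, and time since NaVP cannot be told apart from age.

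All values are log2 ratios of treated over control RNA, centred on the median of the array, so 0 is the middle feature of that array and not an absolute level. Replicates 1 and 2 of each day had treated RNA in Cy5, and replicates 3 and 4 were dye-swapped, with treated RNA in Cy3. The sign rests on reading the deposited ratio as Cy5 over Cy3, which is likely but not stated, and the opposite reading would turn every sign. Day 14 arrays held 11208 to 14421 values with an SD of 0.328 to 0.425 over spots, against 13524 to 19905 values with an SD of 0.524 to 0.856 on day 10 arrays. A given log2 ratio therefore stood farther out on a day 14 array. Arrays of opposite dye orientation correlated at -0.450 to 0.018 across features after turning, and arrays of the same orientation at -0.046 to 0.504. In limma's moderated test 0 of 7529 features passed an adjusted p of 0.05 at day 14 (0%), 0 of 11509 at day 10 (0%) and 0 of 6419 in the difference of day 14 and day 10 (0%). At an unadjusted p under 0.05 there were 193 lower (2.56%) and 107 higher (1.42%) features at day 14, 338 lower (2.94%) and 430 higher (3.74%) at day 10, and 402 in the difference. None of the genes below passed the test in this fit, and their values are given as measured.

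Relative to the array median, sxe2 was lower in treated heads on every array that measured it, and at day 14 its 4 values lay close together. On day 14 arrays its log2 ratios were -0.75, -0.63, -0.69 and -0.61 in replicates 1 to 4. The mean was -0.67 ± 0.062 (SD, n = 4), which is 1.59-fold lower in treated heads. The standard error of the fit, over the 7 arrays of both days that measured sxe2, was 0.13. On day 10 arrays the ratios were -0.19, -0.06 and -0.64 in replicates 1 to 3, with a filtered spot in replicate 4. The day 10 mean was -0.30 ± 0.31 (SD, n = 3), and the fit, which allows for dye, gave -0.33 ± 0.16 (SE). Replicate 3 at day 10 thus lay among the day 14 values, while replicates 1 and 2 lay nearer to 0 than any day 14 array, so the days overlapped in 1 array. Without day 10 replicate 3 the fitted day 10 value was -0.11, so that array decides how far day 10 lay below 0.

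Spot by spot, with arrays centred on their medians, sxe2 gave 14 values, and all 14 were below 0. Its duplicate spots differed by a median of 0.149 log2 units, with a range of 0.030 to 0.511. The largest gap was on day 14 replicate 3, where the spots read -0.43 and -0.94. After turning, the median of the print block around the sxe2 spots was -0.24, -0.39, 0.23 and 0.11 on day 14 replicates 1 to 4. Replicates 3 and 4 were the swapped arrays, so before turning the block median lay below 0 on all 4. On these 4 arrays sxe2 lay below its block median. On day 10 replicates 1 to 3 the block median after turning was -0.27, -0.34 and 0.23. There sxe2, at -0.19 and -0.06, lay above its block median in replicates 1 and 2 and below it in replicate 3. Centring each block on its own median moved the day 14 value of sxe2 to -0.60. Among the 4 day 14 arrays the block medians differed more than the sxe2 values did. The closeness of those 4 values thus holds for centring on the array, and their spread after centring on the block was not computed.

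Cyp4d21 was also lower in treated heads on all 8 arrays, with a wider spread and with discordant spots on day 10 replicate 1. On day 14 arrays the log2 ratios were -0.27, -1.48, -0.74 and -0.59 in replicates 1 to 4. On day 10 arrays they were -0.35, -0.81, -0.71 and -0.29. The lowest value of either day was day 14 replicate 2, the value nearest 0 was day 14 replicate 1, and the 2 days overlapped over the whole day 10 range. The mean was -0.77 ± 0.51 at day 14 and -0.54 ± 0.26 at day 10 (SD, n = 4 each), with fit standard errors of 0.18 and 0.20. These means are 1.70-fold lower at day 14 and 1.46-fold lower at day 10. Without day 14 replicate 2 the day 14 value was -0.51.

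Of 18 Cyp4d21 spot values, 16 were below 0. The clone with values on all 8 arrays had duplicate spots 0.020 to 0.356 apart. The second clone passed the filters only on day 10 replicate 1, where its duplicates, 0.19 and -1.46, differed by 1.65 log2 units. On that array the first clone read 0.12 and -0.24. Each clone thus had a spot on either side of 0, and the spot at -1.46 weighed most in the array value of -0.35. The sign on that array is therefore uncertain, and the count of 8 arrays below 0 depends on it. Leaving that clone out, a choice made after seeing the data, changed the fitted day 10 value to -0.47 ± 0.21 (SE).

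**Figure D1:**
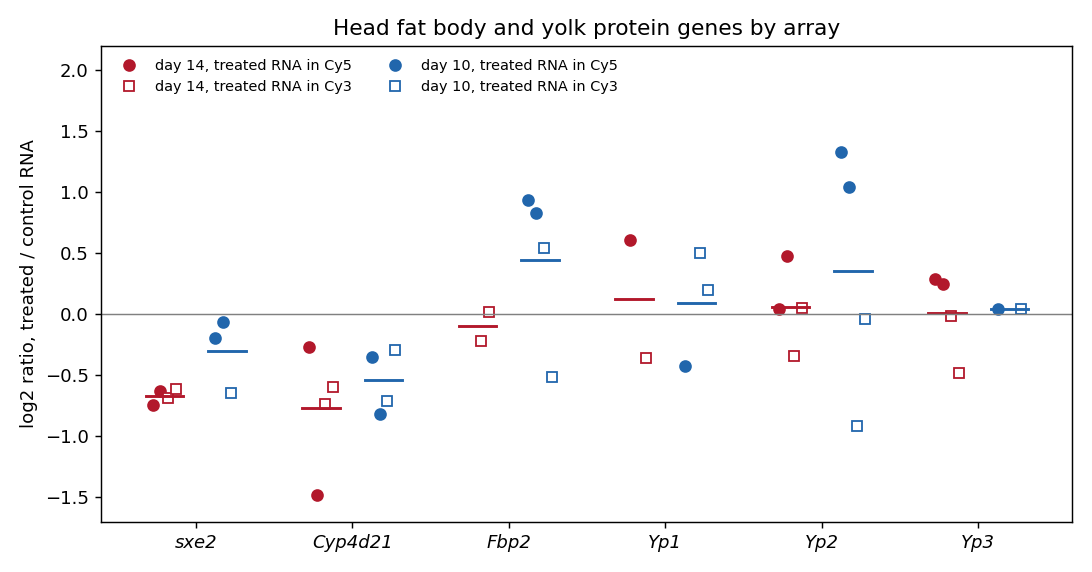
Log2 ratio of treated over control RNA (vertical axis) on each array for the 6 genes, day 14 in red and day 10 in blue. Filled circles are arrays with treated RNA in Cy5, open squares arrays with treated RNA in Cy3, and bars are group means; all sxe2 and Cyp4d21 points lie below 0, while Fbp2 and the yolk protein genes have points on both sides.

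Fbp2 had ratios on both sides of 0. At day 14 it had values only in replicates 3 and 4, -0.22 and 0.02, which is too few for the fit, and both of those arrays carried treated RNA in Cy3. At day 10 its ratios were 0.93, 0.83, 0.54 and -0.51 in replicates 1 to 4. The mean was 0.45 ± 0.66 (SD, n = 4), 1.37-fold higher in treated heads, with the highest 3 arrays above 0 and replicate 4 below. The mean was 0.88 on the day 10 arrays with treated RNA in Cy5 and 0.01 on those with treated RNA in Cy3. The part of its ratio that followed the dye, 0.43, was about as large as the part that followed the treatment. Leaving out day 10 replicate 4 gave 0.71 and leaving out replicate 3 gave 0.18.

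The yolk protein genes showed no shared direction. Yp2 had day 14 ratios of 0.04, 0.47, -0.34 and 0.06 in replicates 1 to 4, and day 10 ratios of 1.33, 1.04, -0.92 and -0.04. The day 10 values split by dye, with both treated-in-Cy5 arrays above 1 and both treated-in-Cy3 arrays below 0. The fit gave 0.06 ± 0.21 (SE, limma adjusted p = 0.999) at day 14 and 0.35 ± 0.23 (limma adjusted p = 0.730) at day 10. For Yp2 the difference of day 14 and day 10 was -0.30 ± 0.30 (limma adjusted p = 0.819). An exact 2-sided permutation test over the 8 arrays gave p = 0.657, where 0.0286 is the smallest p this shuffle allows. The shuffle ignored dye orientation, by which the day 10 values split, so its p does not allow for dye.

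Yp3 had day 14 ratios of 0.29, 0.25, -0.02 and -0.48, with a fitted value of 0.01 ± 0.15 (SE, limma adjusted p = 0.999). At day 10 it had 2 values, 0.04 in replicate 1 and 0.04 in replicate 4. Yp1 had day 14 ratios of 0.61 in replicate 2 and -0.36 in replicate 4. Its day 10 ratios were -0.43, 0.50 and 0.20 in replicates 1, 3 and 4, with a fitted value of 0.09 ± 0.29 (SE, limma adjusted p = 0.934). No yolk protein gene kept one sign over the arrays of day 14, and of the day 10 values Yp1 and Yp2 had both signs. In the 2 rows that named Yp3 with Rtc1, the deposited ratio, not centred and not turned, was 0.37 to 0.97 on the 4 day 10 arrays, above 0 in both dye orientations, and at day 14 they were measured in replicate 2 alone, at -1.32 and -0.26. All of these are ratios, so they do not say how much yolk protein RNA the male heads held.

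The ratios can also be read by dye. For sxe2 and Cyp4d21, chosen on the turned ratios, this restates the values above in another form. In Cy5 over Cy3, before turning, sxe2 was below 0 on all 4 arrays with treated RNA in Cy5 and above 0 on all 3 measured arrays with treated RNA in Cy3. Cyp4d21 changed sign with the swap in the same way on 8 of 8 arrays, with discordant spots on day 10 replicate 1. At day 14 the sxe2 ratio split into a part following the treatment of -0.67 and a part following the dye of -0.02, and the Cyp4d21 ratio into -0.77 and -0.10. At day 10 the parts were -0.39 and 0.26 for sxe2 and -0.54 and -0.04 for Cyp4d21. That sxe2 split rests on 1 array with treated RNA in Cy3. Yp2 had Cy5 over Cy3 above 0 on 7 of 8 arrays, whichever RNA carried the dye, and its dye part was 0.20 at day 14 and 0.83 at day 10. The dye part was 0.49 at day 14 and -0.39 at day 10 for Yp1, and 0.26 at day 14 and 0.0008 at day 10 for Yp3. The Yp1 parts and the Yp3 day 10 part rest on 1 or 2 arrays in each orientation. Of the 3543 features with values on all arrays, 238 (6.72%) kept one sign of Cy5 over Cy3 on all 8. The sign turn itself is not stated in the sources. If the swapped arrays had been deposited already turned, the day 14 values would be -0.02 for sxe2 and -0.10 for Cyp4d21. The turn used here rests on the print-block pattern, which should keep its sign in Cy5 over Cy3. That pattern correlated above 0 in 32 of 32 comparisons between arrays of opposite orientation (r from 0.082 to 0.840). These comparisons reuse the same 8 arrays and are not independent. Feature by feature, arrays of opposite orientation correlated at -0.450 to 0.018 after turning. With the swapped arrays taken as already turned, 304 features passed at day 10, against 0 with the turn used here. These values do not settle the turn.

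**Figure D2:**
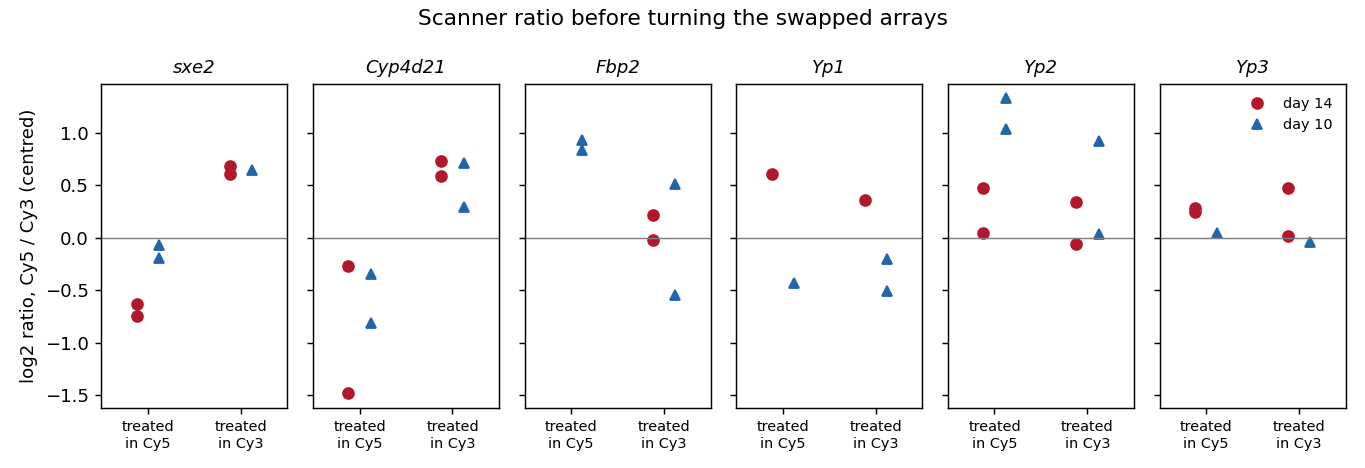
Centred log2 ratio of Cy5 over Cy3 (vertical axis) for each gene, grouped by which dye carried treated RNA, with day 14 as red circles and day 10 as blue triangles. sxe2 and Cyp4d21 lie below 0 with treated RNA in Cy5 and above 0 with treated RNA in Cy3, and Yp2 lies above 0 on 7 of 8 arrays.

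Because the arrays differ in spread, the genes were also placed among the named genes of each array. On day 14 arrays only 1.33%, 1.70%, 1.83% and 2.04% of named genes had a lower ratio than sxe2 in replicates 1 to 4. On day 10 arrays 39.1%, 45.4% and 7.43% were lower than sxe2 in replicates 1 to 3. For Cyp4d21 the shares were 19.6%, 0.086%, 1.40% and 2.38% on day 14 arrays, and 30.2%, 8.46%, 5.40% and 27.1% on day 10 arrays. Both genes therefore stood nearer the bottom of the arrays at day 14 than at day 10, apart from Cyp4d21 on day 14 replicate 1.

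**Figure D3:**
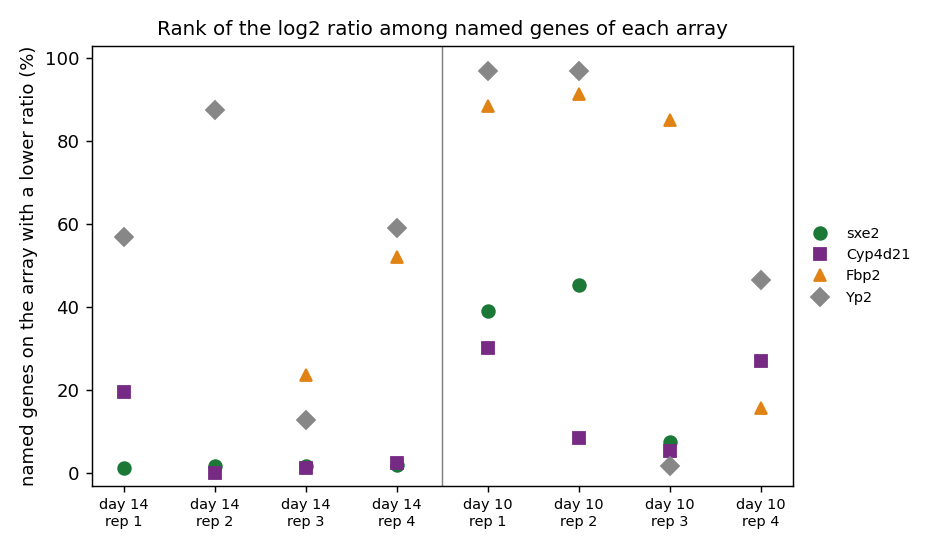
Share of named genes on each array with a lower log2 ratio (vertical axis, percent) for sxe2, Cyp4d21, Fbp2 and Yp2, with day 14 replicates to the left of the line and day 10 replicates to the right. sxe2 lies between 1.33% and 2.04% on the 4 day 14 arrays and between 7.43% and 45.4% on 3 day 10 arrays.

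The fitted difference of day 14 and day 10 was -0.34 ± 0.21 (SE) for sxe2 and -0.23 ± 0.26 for Cyp4d21. With the arrays scaled to one spread it was -0.61 ± 0.20 for sxe2 and -0.57 ± 0.26 for Cyp4d21, and without day 10 replicate 3 it was -0.56 ± 0.24 for sxe2, so its size depends on the scaling and on single arrays. Without day 14 replicate 2 the Cyp4d21 difference was 0.03, so its sign rests on that array.

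Of the 3543 features with values on all arrays, 11 were below 0 on every one (0.31%). Cyp4d21 was among these 11 features, with discordant spots on day 10 replicate 1. The other named genes of that kind were Cyp313a1, CG17508 and TfIIFalpha, which were named after their values were seen. Cyp313a1, another cytochrome P450, had a mean of -0.82 at day 14 and -0.60 at day 10, with array values of -0.94 to -0.43. sxe2 was below 0 on all 7 arrays that measured it, as were 37 of 3667 features (1.01%). Being below 0 on all 4 arrays was more common at day 14, with 463 of 5221 features (8.87%), than at day 10, with 188 of 7545 (2.49%). Since sxe2 and Cyp4d21 were chosen for their ratios, these shares describe the background and say nothing more about the genes.

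sxe2 and Cyp4d21 were both low but did not vary together from array to array. Over the 7 arrays that measured both, Pearson's r was 0.08 and Spearman's rho -0.29. Without day 10 replicates 1 and 2, the arrays on which sxe2 lay farthest from its median, r was -0.56 over 5 arrays. By r, Cyp4d21 ranked 854 of 1519 named genes in likeness to sxe2. By the root mean square difference of the log2 ratios, which also counts the level, it ranked 125 at 0.47. Arrays share dye orientation, day and slide pattern, and these correlations carry no test.

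The genes with the highest r to sxe2 over its 7 arrays were CG6023 (r = 0.98), CG5880 (r = 0.98), CG2698 (r = 0.98), pst (r = 0.98) and CG5171 (r = 0.97). Their ratios were not low throughout: pst, the gene pastrel, averaged -0.32 at day 14 and 0.07 at day 10, and CG6023 averaged -0.02 and 0.32. In all, 78 of the 1519 genes had an r above 0.9 with sxe2, so a high r was common over 7 arrays. For Cyp4d21, over 8 arrays and 1481 genes, the highest were CG3061 (r = 0.84), vig (r = 0.82), which encodes a component of the RNA interference complex, CtBP (r = 0.79), a transcriptional corepressor, Idi (r = 0.78) and mRpL12 (r = 0.77), a mitochondrial ribosomal protein.

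Ranking by root mean square difference, a measure added after the values were seen, gave other genes. Nearest to sxe2 were Timp, an inhibitor of metalloproteases, at 0.18, CG15098 at 0.20, CG7966 at 0.20, Cyt-b5-r, a cytochrome b5 relative, at 0.22 and the cytochrome P450 gene Cyp28d1 at 0.23. Timp averaged -0.50 at day 14 and 0.07 at day 10, and Cyp28d1 averaged -0.57 and -0.15. Nearest to Cyp4d21 were Cyp313a1 at 0.32, CG9689 at 0.45, Cyt-b5-r at 0.51, CG15098 at 0.51 and Rpt3, a proteasome subunit, at 0.51. Cyt-b5-r and CG15098 were near both genes.

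Other fat body genes were mostly below 0 at day 14 and mostly above 0 at day 10, but these counts depended on the processing. With the swapped arrays taken as already turned, 7 of 17 lay below 0 at day 14, and with print blocks centred 10 of 18 lay below 0 at day 10. Of 32 genes on the fat body list, 22 were named on the array and 17 were tested at day 14. Of these 17, 14 lay below 0 with a median of -0.11, beside 50.7% of all features below 0 and a median of -0.003. The list includes sxe2 and Cyp4d21, and without the chosen genes 12 of 15 lay below 0 with a median of -0.07. At day 10, 6 of 18 lay below 0 with a median of 0.09, beside 43.5% of all features and a median of 0.04; without the chosen genes it was 4 of 15 with a median of 0.10. None passed the adjusted p. sxe2 and Cyp4d21 were the lowest of the list at day 14, a description only, as they were chosen with their ratios known. The next lowest log2 ratios were those of Lsp2, a storage protein, at -0.33 ± 0.27 (SE) and Desat1, a fatty acid desaturase, at -0.24 ± 0.13. Desat1 was below 0 on all 4 day 14 arrays.

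At day 10 the lowest fat body gene was mdy, which makes triglyceride, at -0.88 ± 0.21 (SE, n = 3, limma adjusted p = 0.727). Its day 14 value was 0.01 ± 0.17. The storage protein Lsp2 had 0.40 ± 0.37 at day 10, and Apoltp, a lipid transfer particle protein, had -0.18 ± 0.13 at day 14 and 0.19 ± 0.13 at day 10. In the difference of day 14 and day 10, 11 of 14 list genes lay below 0 with a median of -0.28, beside 54.6% of all features and a median of -0.03. Without the chosen genes it was 9 of 12, also with a median of -0.28. Ratios from whole heads cannot tell fewer fat body cells from less RNA per cell.

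**Figure D4:**
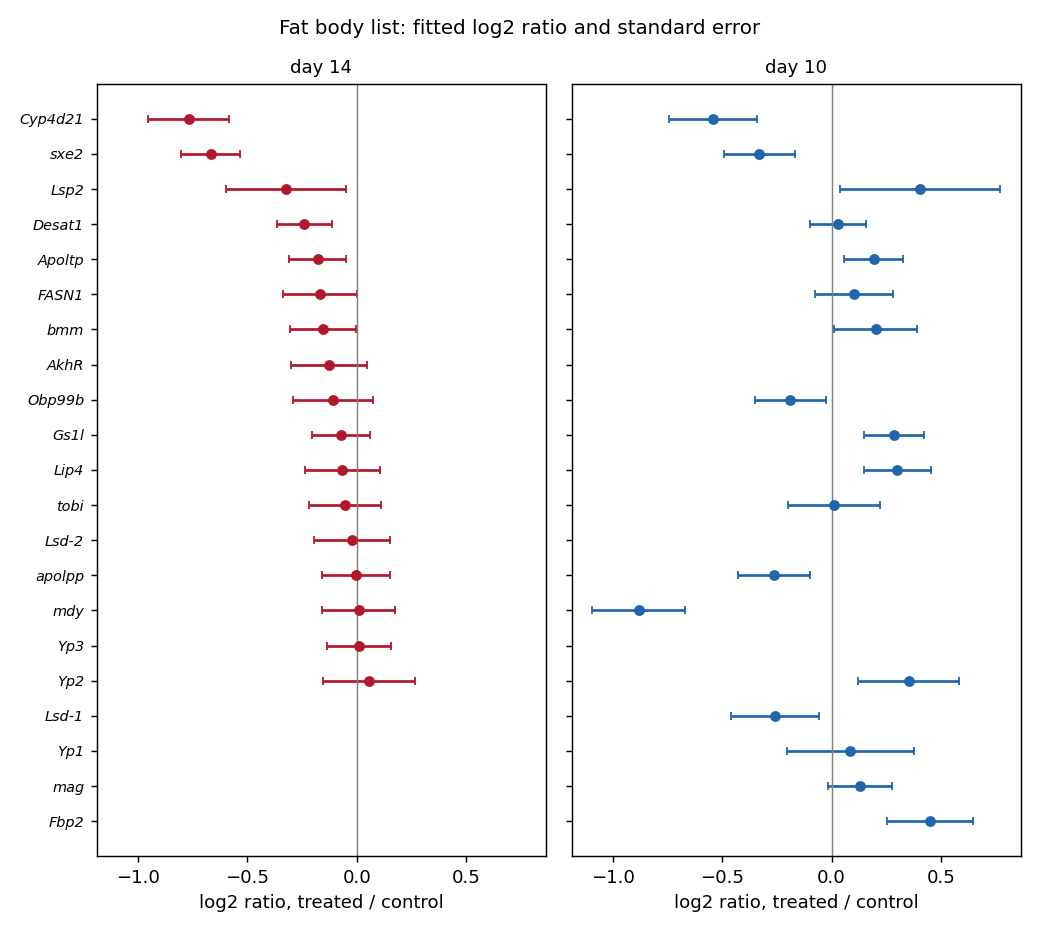
Fitted log2 ratio of treated over control RNA (horizontal axis) with its standard error for the measured genes of the fat body list, day 14 in the left panel and day 10 in the right; a missing point is a gene with fewer than 3 arrays. sxe2 and Cyp4d21, chosen with their ratios known, lie lowest at day 14. There 14 of 17 genes lie below 0, against 6 of 18 at day 10.

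The defining markers of the fat body are a shorter list that lies wholly within the first, so their counts are not separate from those above. They were below 0 for 5 of 5 tested genes at day 14 (median -0.15) and 2 of 5 at day 10 (median 0.19). Of the 5 at day 14, apolpp was at -0.005, and AkhR, at -0.13, was below 0 on 1 of 4 arrays. Of all features, 50.7% lay below 0 at day 14 and 43.5% at day 10. Markers of other cells were measured in the same way. At day 14 the medians were -0.37 for glia (2 genes), -0.13 for oenocytes (2), -0.10 for photoreceptors (5), -0.08 for muscle (5), -0.07 for haemocytes (1), -0.04 for neurons (2), -0.04 for cuticle and epidermis (4) and 0.07 for gut (3). At day 10 they were -0.19 for glia (6 genes), -0.08 for photoreceptors (6), -0.05 for muscle (6), -0.002 for oenocytes (2), 0.05 for gut (6), 0.24 for neurons (3), 0.24 for haemocytes (5) and 0.34 for cuticle and epidermis (5). No marker gene passed the adjusted p, and the share of cell types in the sxe2 and Cyp4d21 values was not tested. Markers of the male reproductive tract had 0 tested genes at day 14 and 3 at day 10 (median -0.31). Female-tissue markers, which include the yolk protein genes, had medians of 0.03 at day 14 (2 genes) and 0.09 at day 10 (3 genes).

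Among genes of sexual identity, 12 of 19 were named on the array, and 6 were tested at day 14 and 8 at day 10. At day 14, 3 of 6 lay below 0, with a median of -0.05, beside 50.7% of all features. The lowest were sxe2 and Cyp4d21, a description only, as they were chosen with their ratios known. At day 10, 5 of 8 lay below 0, with a median of -0.11, beside 43.5% of all features. The transcription factor gene dsx, through which sex determination reaches the fat body, was 0.19 ± 0.20 (SE, n = 3) at day 14, and fit, a female-enriched head fat body gene, was -0.35 ± 0.19 at day 10. Leaving out sxe2 and Cyp4d21, 1 of 4 genes at day 14 and 3 of 6 at day 10 lay below 0.

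Cyp4d21 belongs to the Cyp4 family of cytochrome P450 enzymes, of which 20 of 22 listed genes were on the array. At day 14, 7 of 11 tested members lay below 0 with a median of -0.24, and without Cyp4d21 6 of 10 with a median of -0.20. Of all features, 50.7% lay below 0 that day. Cyp4d21 aside, 2 of the 10 were lower at an unadjusted p under 0.05 at day 14, where 2.56% of all features were. These were Cyp4e2 at -0.61 ± 0.16 (SE, n = 3, limma adjusted p = 0.797) and Cyp4ac1 at -0.41 ± 0.17 (n = 4, limma adjusted p = 0.999). At day 10 Cyp4e2 was 0.16 ± 0.14 and Cyp4ac1 -0.05 ± 0.18. At day 10, 11 of 17 members lay below 0, with a median of -0.09, beside 43.5% of all features. The smallest p values there, Cyp4d21 aside, belonged to Cyp4p3 at -0.72 ± 0.21 (n = 3, limma adjusted p = 0.727) and Cyp4ae1 at 0.40 ± 0.17 (limma adjusted p = 0.727). The near copies Cyp4ac1, Cyp4ac2 and Cyp4ac3, and likewise Cyp4p1, Cyp4p2 and Cyp4p3, may share signal on cDNA probes, and this was not tested.

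**Figure D5:**
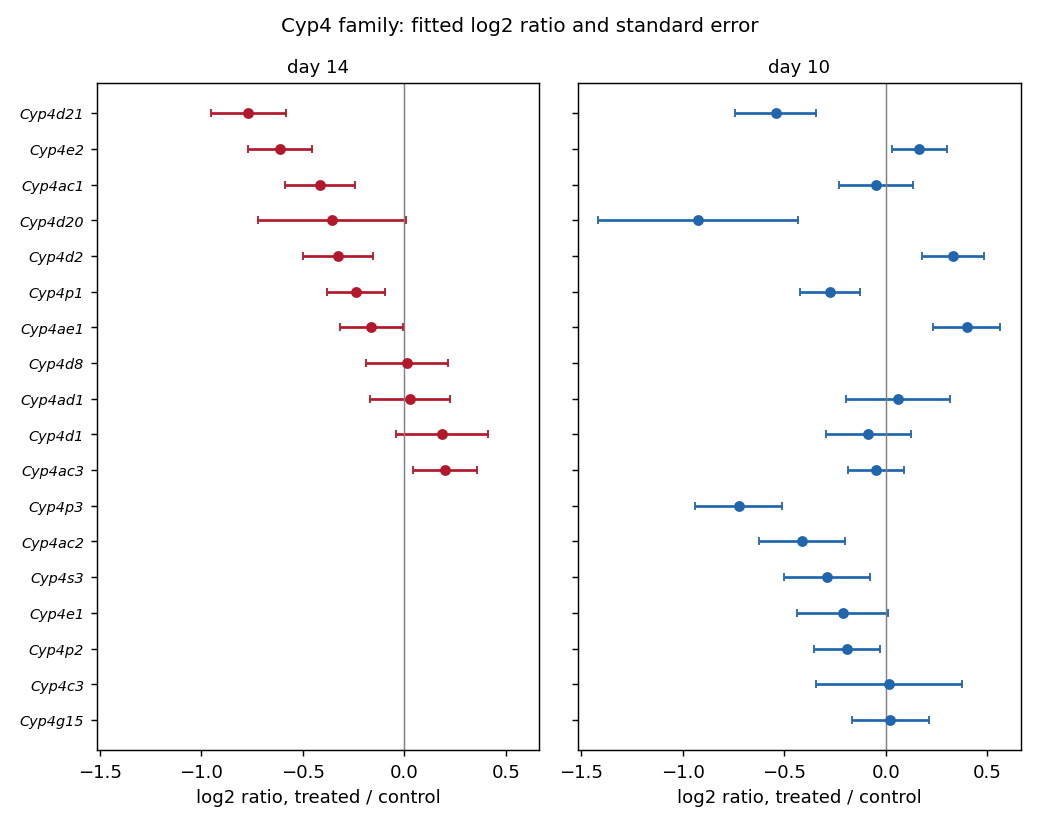
Fitted log2 ratio of treated over control RNA (horizontal axis) with its standard error for measured Cyp4 family genes, day 14 in the left panel and day 10 in the right; a missing point is a gene with fewer than 3 arrays. Cyp4d21, chosen with its ratios known, has the lowest day 14 value at -0.77. Cyp4e2 at -0.61 and Cyp4ac1 at -0.41 follow, and at day 10 Cyp4e2 lies at 0.16.

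The lipase family, to which sxe2 and the yolk proteins belong, had 28 of 54 listed genes on the array. At day 14, 7 of 11 tested members lay below 0 with a median of -0.07, and at day 10, 7 of 16 with a median of 0.11. Beside these, 50.7% of all features lay below 0 at day 14 and 43.5% at day 10. sxe2, chosen with its ratios known, was the lowest at day 14. The member with the next smallest p, CG6295, was 0.23 ± 0.18 (SE, n = 3). At day 10 the fit, which allows for dye, gave 0.49 ± 0.19 for CG6296 and -0.46 ± 0.22 for CG11598 (n = 3 each). The array values ran from -1.09 to 2.01 for CG6296 and from -0.94 to 0.21 for CG11598. Each was below 0 on 2 of 3 arrays. The lipase gene brummer (bmm), which breaks down stored fat, was -0.15 ± 0.15 at day 14 and 0.20 ± 0.19 at day 10.

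The relatives of Fbp2 in the alcohol dehydrogenase family were close to 0. At day 14, 5 of 5 tested members lay below 0, with a median of -0.09, beside 50.7% of all features. The smallest p values belonged to CG4842 at -0.13 ± 0.13 (SE) and Pdh at -0.11 ± 0.20. At day 10, 3 of 7 lay below 0, with a median of 0.09, beside 43.5% of all features. Fbp2, also chosen with its ratios known, had the highest ratio of that list at day 10, and Adh, which detoxifies ethanol, was -0.36 ± 0.17.

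Because sxe1 expression is under clock control and head fat body genes respond to feeding, lists for both were read beside the members. Among clock genes 1 of 5 lay below 0 at day 14, with a median of 0.14, and 3 of 7 at day 10, with a median of 0.08. The shares over all features were 50.7% at day 14 and 43.5% at day 10. The gene below 0 at day 14 was cry, a blue-light photoreceptor of the clock, at -0.58 ± 0.14 (SE, below 0 on 4 of 4 arrays, limma adjusted p = 0.708) at day 14 and -0.11 ± 0.15 at day 10. Pdfr, the receptor of the clock neuropeptide, was 0.26 ± 0.13 at day 14. Pdf, that neuropeptide, was 0.45 ± 0.15 at day 10 (limma adjusted p = 0.727), and Pdp1, a clock transcription factor, was -0.50 ± 0.37. The sources used here do not give the hour at which heads were collected.

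Of the genes of fasting and nutrient response, none passed the test. At day 14, 7 of 8 lay below 0, with a median of -0.12, beside 50.7% of all features. At day 10, 1 of 9 did, with a median of 0.18, beside 43.5% of all features. This list shares the measured genes bmm, FASN1, AkhR, Lip4 and tobi with the fat body list, so its counts are not a separate pattern. Gpdh1, which makes glycerol phosphate for lipid synthesis, was -0.55 ± 0.14 (SE, below 0 on 4 of 4 arrays, limma adjusted p = 0.747) at day 14 and 0.12 ± 0.15 at day 10. The sugar-responsive transcription factor gene sug was 0.24 ± 0.18 at day 14. At day 10 Amyrel, an amylase relative, was 0.36 ± 0.14 and Lip4, a lipase, 0.30 ± 0.15, both above 0 on 4 of 4 arrays. The male head fat body gene takeout, which also responds to starvation, was on the fat body, sexual identity and fasting lists. It was not among the genes named on the array and has no value here.

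Some genes next to the members in the genome were measured too. Of the 5 genes on either side of sxe2 in the RefSeq order, CG5013, msps and CG10185 were fitted at day 14, at 0.08, -0.01 and -0.08. At day 10 these had -0.26, 0.17 and 0.19, while Akt had 0.15 and CG5916 -0.29, so CG5916 and CG5013 lay close to the day 10 value of sxe2. Beside Cyp4d21, CG6441, RapGAP1 and Slob were fitted at day 14, at 0.02, 0.03 and 0.33. At day 10 CG6441 had -0.12, RapGAP1 0.05, CG6739 -0.18, CG18585 0.03 and Slob, a potassium channel binding protein, 0.25. FucTB, the gene near Fbp2 that was fitted, had 0.03 at day 14 and -0.21 at day 10.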

How the data were processed

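The 8 arrays carried D12Kv1 cDNA spots. Scanning was on a GenePix 4000A, per the series text, ratios were normalised by the authors with Acuity 4.0, and spots failing filters on brightness, saturation, uniformity and signal over noise were left blank. The deposited values are log2 ratios, judged from the values; 2 capped values at 16.6 were left out. Gene names came from the platform annotation, updated to RefSeq (14894 of 15116 rows matched). No sequences or coordinates were used, since the array's build is not given in the sources used here.

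Each array was centred on its median, the swapped arrays' sign was turned, and rows of a single gene were averaged. With limma 3.58.1 in R 4.3.3, all 8 arrays entered 1 fit with a mean for each day and a gene-wise dye term, solved for each pattern of missing arrays. At least 3 of 4 arrays were needed. Benjamini-Hochberg adjustment ran over every feature tested (threshold 0.05). Missing values were not imputed. The fit was tested on simulated data for day 14 and the difference. Folds are 2 to the power of the log2 ratio. The number of arrays limits the precision.

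Per the series text the 4 sets of each day are biological replicates, each of pooled heads. Members and lists were chosen with earlier results of these data known. The text names every member, the 5 genes with the highest r to sxe2 and to Cyp4d21, and the 2 genes with the smallest p in each list and day; other names were added after their values were seen. Alternatives were the centring, the scaling, the dye term, the block of replicate number, the turning of swapped arrays and groups fitted alone. Further ones were the need for all 4 or at least 2 arrays, the median of a gene's rows, a robust prior in limma, and leaving out each array.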

Additional observations from a re-analysis of the deposited data

How the results depend on the processing

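Few arrays, an unstated ratio direction and ratios that follow the dye limit these values. Spots that failed the filters are blank, and Fbp2 and Yp1 at day 14 and Yp3 at day 10 have 2 arrays each. The cause of the shifts below was not tested.

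With arrays scaled to one spread, 39 features passed at day 14 (4 higher, 35 lower), sxe2 was -0.88 at day 14 with a difference of day 14 and day 10 of -0.61, Cyp4d21 was -0.98 with a difference of -0.57, and Yp3 was -0.022 at day 14. With each day fitted alone, 70 passed at day 14 (18 higher, 52 lower) and Yp1 was -0.038 at day 10. sxe2 and Cyp4d21 were among the lower features passing in both of these fits, which, as they were chosen on these ratios, is a description only. Over the alternatives that keep every array, features at an unadjusted p under 0.05 numbered 129 to 525 lower and 30 to 362 higher at day 14, and 134 to 1237 lower and 180 to 2056 higher at day 10. With arrays not centred, which put the median of all features at -0.09 at day 14, the day 14 values were -0.75 for sxe2, -0.026 for Yp2 and -0.073 for Yp3. With print blocks centred, sxe2 was -0.60 at day 14, Yp1 was -0.070 at day 10, and 10 fat body list genes lay below 0 at day 10. With the swapped arrays taken as already turned, 304 features passed at day 10 (264 higher, 40 lower), sxe2 was -0.021 at day 14 and 0.32 at day 10, Cyp4d21 was -0.10 at day 14 and -0.039 at day 10, Yp1 was -0.36 at day 10, and 7 fat body list genes lay below 0 at day 14. Where values on all 4 arrays were required, 3 of 11 fat body list genes lay below 0 at day 10. Where values on at least 2 arrays sufficed, Fbp2 entered the fit at day 14 at 0.34, while its array values there were -0.22 and 0.02. The counts for the fat body list and the value without the second Cyp4d21 clone were added after seeing the data.

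Leaving out 1 array at a time gave 0 features passing for day 14, 0 to 1 for day 10 and 0 to 1 for the difference. sxe2 ranged from -0.73 to -0.60 at day 14, from -0.42 to -0.11 at day 10 and, for the difference, from -0.56 to -0.25, with day 10 replicate 3 setting the value nearest 0 at day 10. Cyp4d21 ranged from -0.998 to -0.51 at day 14, from -0.65 to -0.45 at day 10 and, for the difference, from -0.46 to 0.030, where day 14 replicate 2 turned the sign. Fbp2 ranged from 0.18 to 0.71 at day 10. Yp2 ranged from -0.15 to 0.27 at day 14, from 0.17 to 0.65 at day 10 and, for the difference, from -0.60 to -0.083. Yp1 ranged from -0.11 to 0.84 at day 10 and Yp3 from -0.052 to 0.15 at day 14. The fat body list had 11 to 15 genes below 0 at day 14 and 5 to 8 at day 10. Apart from the values named here, the members' values kept their direction in the alternatives run, and the counts of features passing and of fat body list genes below 0 stayed within 1.5 times of those reported. Counts for the other lists, and for the fat body list in the difference of day 14 and day 10, were not recomputed.

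Same-numbered arrays of the 2 days share a dye orientation. Their deviations from the group means correlated at 0.062, 0.417, 0.389 and 0.097 over 3543 features. As dye orientation is shared, these values cannot tell pairing from dye. The main fit did not take the numbers to pair the samples. With the replicate number as a block in place of the dye term, sxe2 was -0.67 at day 14, -0.28 at day 10 and, for the difference, -0.39, Cyp4d21 was -0.77 at day 14 and -0.54 at day 10, and 0 features passed in each comparison.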
